A study of Mus musculus with 27 samples.

Results

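The 10 genes described here, Ttr, Enpp2, Kl, Folr1, Clic6, Tmem72, Prlr, F5, Slc4a5 and Sostdc1, are genes that epithelium of the choroid plexus is known to express. They were taken by symbol from the 52636 gene identifiers of 2 count tables, and all 10 had an identifier in both. The members were chosen by their high counts in 1 striatum library, library 15, so their levels in that library are described and not tested. RNA was sequenced from frontal cortex and striatum of adult mice of about 2.5 months on the 129S1 background. Wild-type mice were compared with mice homozygous for a 4.9 kb deletion between H19 and Igf2 (Igf2enh-/-), in which 1 loxP site remains from the removal of a selection cassette by an Hprt-CRE transgene. RNA came from homogenized tissue, with no sorting of cells described. There were 6 wild-type and 6 Igf2enh-/- libraries of frontal cortex, 3 females and 3 males each, and 7 wild-type (3 females, 4 males) and 8 Igf2enh-/- (4 of each sex) libraries of striatum. Libraries are named by the number that opens their label, and the labels do not say which libraries of the 2 regions came from the same mouse.

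The choroid plexus is a sheet of secretory epithelium around fenestrated vessels that hangs in the brain ventricles and makes cerebrospinal fluid. Its epithelial cells take ions, water, vitamins and hormones from the blood and secrete carrier proteins, growth factors and growth factor antagonists into the fluid. Igf2, the imprinted growth factor next to the deletion, is known to be made by choroid plexus and meninges in the adult brain. The lateral ventricle with its plexus borders the striatum, while frontal cortex is covered by meninges.

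Levels are CPM, read counts scaled to a fixed library total, after normalization by the trimmed mean of M-values (TMM) over all 27 libraries. Totals per library lay between 24929068 and 30979248 counts in frontal cortex and between 23686945 and 33926904 in striatum. Library 15, an Igf2enh-/- female striatum, stood apart in the members. Library 20, a wild-type male striatum, had the lowest summed level of 9 genes of striatal projection neurons among striatum libraries (3789 CPM, against a median of 8327) and the highest of 6 genes of cortical projection neurons (1029 CPM, median 324). Library 1, an Igf2enh-/- female frontal cortex, had the highest summed level of 14 meningeal fibroblast genes (253 CPM, median 175) and the lowest of 8 oligodendrocyte genes (992 CPM, median 1799).

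The members are given with their identifiers in the count tables and their whole gene spans in RefSeq's GRCm38.p6. The genes of secreted proteins are Ttr (ENSMUSG00000061808) at chr18:20664209-20674326, Enpp2 (ENSMUSG00000022425) at chr15:54838901-54952789, F5 (ENSMUSG00000026579) at chr1:164151835-164220277 and Sostdc1 (ENSMUSG00000036169) at chr12:36314169-36318452. The receptor genes are Kl (ENSMUSG00000058488) at chr5:150952607-150993817, Folr1 (ENSMUSG00000001827) at chr7:101858331-101870788 and Prlr (ENSMUSG00000005268) at chr15:10177238-10349190. The other membrane and channel protein genes are Clic6 (ENSMUSG00000022949) at chr16:92498147-92541241, Tmem72 (ENSMUSG00000048108) at chr6:116691539-116716982 and Slc4a5 (ENSMUSG00000068323) at chr6:83207580-83304945.

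Among the secreted members, Ttr encodes transthyretin, the carrier of thyroxine and, through retinol-binding protein, of retinol. In frontal cortex it was nearly absent. The count of Ttr was 0 in 5 of 12 libraries, which allows up to between 0.11 and 0.118 CPM (3 counts, counting error only), and the highest value was 0.719 CPM, or 18 counts, in library 1. In wild-type striatum its lowest, median and highest levels were 6.33, 18.3 and 35 CPM. In the 7 Igf2enh-/- striatum libraries other than library 15 they were 5.45, 6.95 and 106 CPM, the highest being library 19, a male. Library 15 held 83106 Ttr counts, 3036 CPM. These were 0.312% of all its counts (95% Wilson interval 0.31 to 0.314%, counting error only, with reads taken as independent molecules). The wild-type and Igf2enh-/- ranges overlapped, and every striatum library lay above every frontal cortex library.

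Enpp2 encodes autotaxin, the secreted enzyme that makes lysophosphatidic acid, and is also known as an oligodendrocyte gene. It was the one member at a high level in every library. It ran from 226 to 262 CPM in wild-type frontal cortex (median 239), from 162 to 259 CPM in Igf2enh-/- frontal cortex (median 230), from 142 to 318 CPM in wild-type striatum (median 195) and from 147 to 202 CPM in the 7 Igf2enh-/- striatum libraries other than library 15 (median 174). Library 15 stood at 1216 CPM. The wild-type and Igf2enh-/- ranges overlapped in both regions.

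F5, coagulation factor V, ran from 0.231 to 0.795 CPM in frontal cortex and from 0.887 to 2.09 CPM in the 14 striatum libraries other than library 15, so that the regions did not overlap. Its level in library 15 was 31.2 CPM. Sostdc1, a secreted antagonist of BMP and Wnt signals, lay between 0.189 and 0.503 CPM in frontal cortex and between 0.0995 and 1.82 CPM in the same 14 striatum libraries, with overlap, and reached 19.5 CPM in library 15.

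Receptors come next. Kl encodes Klotho, the co-receptor of FGF23, which is also shed. In frontal cortex its lowest, median and highest levels were 1.73, 2.36 and 5.15 CPM, the highest in library 1. In the 14 striatum libraries they were 2.21, 4.43 and 8.28 CPM, the highest in library 26, a wild-type male, and library 15 had 115 CPM. Folr1, the folate receptor that carries folate across the plexus epithelium, was as low in frontal cortex (0.0799 to 0.523 CPM) as in the 14 striatum libraries (0.0391 to 0.782 CPM), and reached 19.7 CPM in library 15. Prlr, the prolactin receptor, lay between 0.357 and 0.759 CPM in frontal cortex. In the 14 striatum libraries its median was 0.864 CPM, and libraries 26 (4.58 CPM) and 19 (10.5 CPM) stood above the other 12, which ended at 1.77 CPM. Library 15 had 49.9 CPM.

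The last 3 members are membrane or channel proteins. Clic6, a protein of the chloride intracellular channel family, separated the regions without exception. It ran from 0.111 to 0.799 CPM in frontal cortex and from 10.4 to 33.9 CPM in the 14 striatum libraries, with library 20 lowest and library 24 highest, and had 81 CPM in library 15. Tmem72, a transmembrane protein, lay between 0 and 0.185 CPM in frontal cortex and between 0.689 and 2.75 CPM in striatum, with 58.7 CPM in library 15. Slc4a5, a sodium bicarbonate cotransporter of the epithelium, lay between 0 and 0.31 CPM in frontal cortex and between 0.0343 and 0.968 CPM in striatum, with 28.5 CPM in library 15. Per kb of exon (union of a gene's exons in GENCODE vM1), Ttr was the most abundant member in library 15 (2490 CPM per kb), before Enpp2 (350) and Kl (22.6), while in the median of the other 14 striatum libraries Enpp2 came first (51 CPM per kb), then Ttr (7.59) and Clic6 (5.94). Clic6 and Enpp2 were therefore well expressed in striatum libraries where Folr1, Slc4a5 and Sostdc1 were below 0.5 CPM in the median.

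**Figure D1:**
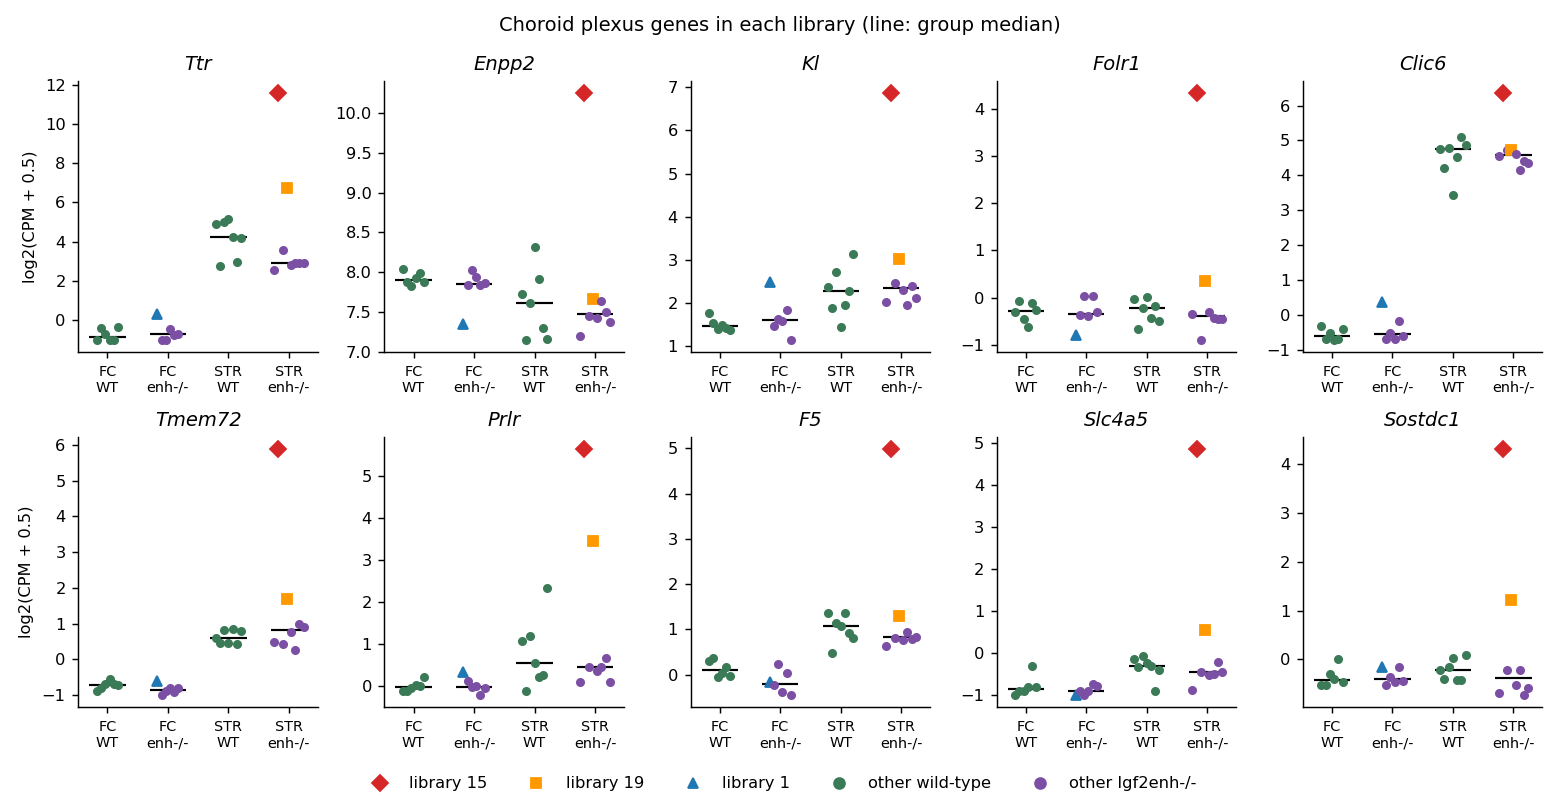
Levels of the 10 members as log2(CPM + 0.5) in each of 27 libraries, by region (FC, frontal cortex; STR, striatum) and genotype (WT, wild-type; enh-/-, Igf2enh-/-), with a line at the group median. Library 15 is the highest striatum library for all 10 members, and Ttr, Clic6, Tmem72 and F5 do not overlap between the regions.

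Library 15 was compared with the other 14 striatum libraries as a description, because its values led to the list. It was highest for 10 of the 10 members, and at least 2-fold above the next library for all 10. Over genes with 5 CPM or more in library 15, 4.15% were highest in that library and 0.451% were at least 2-fold above the next (over genes that reached 1 CPM in all striatum libraries, 4.25% and 0.188%). The latter were 53 of 11744 genes, and 43 of the 53 were not members. Relative to the next highest library the excess ran from 2.39-fold for Clic6 to 29.5-fold for Slc4a5 (28.5-fold for Ttr). Relative to the median of the other 14 libraries it ran from 3.48-fold for Clic6 and 6.86-fold for Enpp2 to 102-fold for Slc4a5 and 328-fold for Ttr, with a median over the members of 55.6-fold. The 10 members held 0.479% of the counts of library 15 and between 0.0172% and 0.0378% of the counts of the other 14. The members with the smallest ratios, Clic6 and Enpp2, were with Ttr the 3 members with the highest CPM per kb in the other 14.

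**Figure D2:**
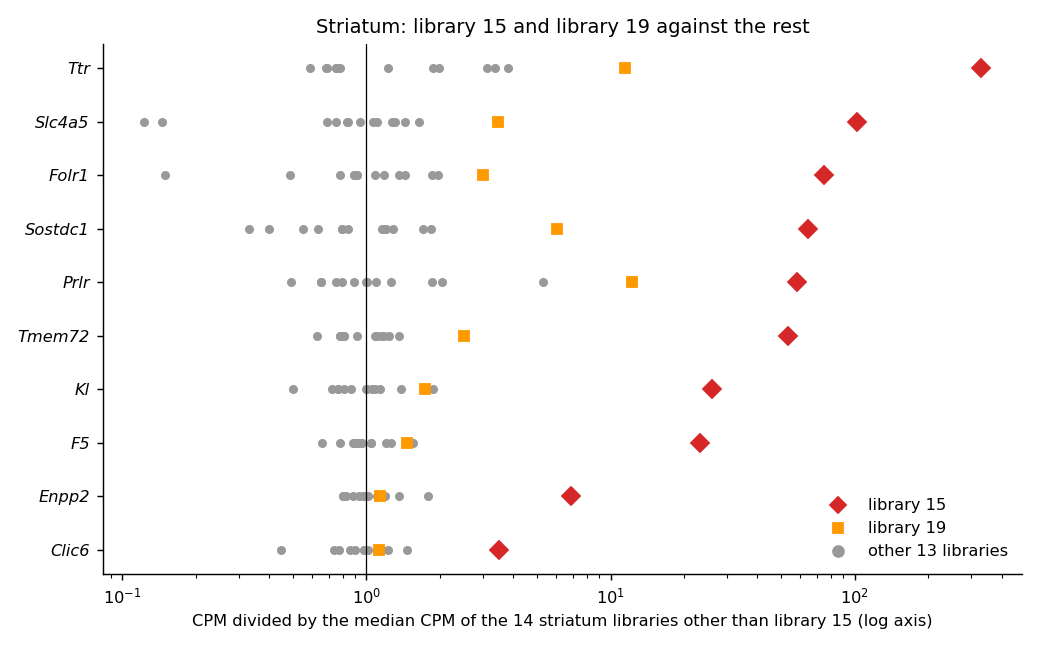
Level of each member in the 15 striatum libraries divided by the median of the 14 other than library 15, on a log axis. Library 15 lies to the right of all others for every member, from 3.48-fold for Clic6 to 328-fold for Ttr, and library 19 is the next highest for 6 of the 10.

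Library 15 also stood out for plexus genes that are not members. Of 19 other genes of choroid plexus epithelium, 19 were highest in it, 15 of them at least 2-fold above the next library. Over genes with 5 CPM or more in library 15 the shares were 4.15% and 0.451%. The 19 genes were not held to that filter, and Lmx1a (1.06 CPM), Steap1 (2.59 CPM) and Krt18 (3.36 CPM) lay under it in library 15. That list was also chosen with earlier results of these data known, so its count is a description and no independent test. The 10 genes outside the members with the largest ratio to the next library were Kcne2 (30.4-fold), Mfrp (27.4), Kcnj13 (24.7), Cldn2 (24.3), Ecrg4 (14.8), Aqp1 (13.8), Slc16a8 (13.4), Slc13a4 (9.1), Col8a1 (8.33) and A2m (8.05). Kcne2 and Kcnj13 are potassium channel proteins, Cldn2 the claudin of leaky epithelia and Aqp1 a water channel. Otx2, the homeodomain factor that plexus epithelium needs, had 11.9 CPM in library 15, 3.95 CPM in library 19 and 2.22 CPM in library 26. Igf2 itself had 258 CPM in library 15, while the other 14 lay between 34.1 and 61.6 CPM. Of 13 ion and water transport genes 5 are among these 19. Of the other 8, 1 was highest in library 15 and 0 were at least 2-fold above the next library. Of 13 genes of thyroid hormone and retinol handling 4 were highest in it, none by 2-fold.

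Markers of neighbouring tissues were mixed. Library 15 was highest for 4.15% of genes with 5 CPM or more in it and for 4.25% of genes that reached 1 CPM in all striatum libraries. The lists of this paragraph were not held to these filters. Of 12 ependymal genes 5 were highest in library 15, with a median ratio of 2.04 to the median library. Their sum was 74.4 CPM in library 15, 73 CPM in library 19 and between 40.7 and 73 CPM over the 14. Foxj1, the regulator of motile cilia, had 12.5 CPM in library 15 and 11.4 CPM in library 19. Of 14 meningeal fibroblast genes 11 were highest in library 15, with a median ratio of 1.72 and a sum of 106 CPM against 53.4 to 69.8 CPM. None of 8 oligodendrocyte genes, 9 genes of striatal projection neurons, 6 genes of cortical projection neurons or 3 measured blood genes was highest in library 15. Of 2 genes of fenestrated endothelium Esm1 was highest in library 15 (0.694 CPM, 5.48-fold the next library, from 19 counts) and Plvap was not (16.3 CPM, against 10.6 to 16.6 CPM). The part of these cells in the members' levels was not tested. In bulk tissue a different number of cells of a type and a different amount of RNA per cell cannot be told apart.

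Outside library 15, library 19 held the highest level of 6 members, namely Ttr, Folr1, Tmem72, Prlr, Slc4a5 and Sostdc1, and was among the 3 highest for 8. The counts of those genes relative to Ttr were set side by side in the 2 libraries, with exact binomial intervals that cover counting error only. Folr1 counts were 0.647% of the Ttr count in library 15 (0.594 to 0.705%) and 0.735% in library 19 (0.454 to 1.13%). Slc4a5 counts were 0.94% (0.875 to 1.01%) and 0.91% (0.593 to 1.34%). Their ratios to Ttr in library 19 lay within counting error of those in library 15. Tmem72 counts were 1.93% (1.84 to 2.03%) of Ttr in library 15 and 2.59% (2.03 to 3.26%) in library 19. Sostdc1 counts were 0.641% (0.588 to 0.698%) and 1.71% (1.27 to 2.27%), and Prlr counts 1.64% (1.56 to 1.74%) and 9.9% (8.73 to 11.2%). For Prlr and Sostdc1 the intervals of these 2 libraries did not overlap, which describes these libraries and carries no spread between samples. Igf2 in library 19 lay within the range of the other libraries.

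Among themselves the members were correlated across libraries to a degree that rested on these libraries. Over the 15 striatum libraries 45 of 45 pairs had a positive Pearson r of log2(CPM + 0.5), with a median of 0.92. Without library 15, 41 of 45 did, with a median of 0.51 (n = 14), and without libraries 15 and 19, 34 of 45 did, with a median of 0.25 (n = 13). In frontal cortex 26 of 45 pairs were positive with a median of 0.1 (n = 12). The points share library depth, and Ttr did not exceed 18 counts in frontal cortex.

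The regions were compared in a model with region, genotype and sex over the 26 libraries other than library 15 (edgeR quasi-likelihood F-test, Benjamini-Hochberg adjustment over all genes tested). Libraries entered as independent, because the labels do not say which libraries of the 2 regions share a mouse. Most genes differ between cortex and striatum in this fit. Of 13417 genes that reached 1 CPM in all libraries (the filter of the fit) 77.1% passed an adjusted p of 0.05, and of 35893 genes with any count 41.3% did. The first set held 2 members, Enpp2 and Kl, and the other 8 were tested in the second. Of the 10 members 8 passed, 7 of them higher in striatum and Enpp2 lower, while 39.2% of the genes of the filtered fit and 21.1% of those of the other were higher in striatum. Ttr was higher by 7.02 on the log2 scale (standard error 0.671, adjusted p = 1.4e-10) and Clic6 by 6.57 (standard error 0.217, adjusted p = 1.3e-21). Tmem72 was higher by 3.72 (standard error 0.275), Slc4a5 by 2.15 (0.451), Prlr by 1.74 (0.448), F5 by 1.54 (0.16) and Kl by 0.85 (0.186). Enpp2 was lower in striatum, with a log2 change of -0.32 (standard error 0.0967, adjusted p = 0.0039). Folr1 (-0.08, standard error 0.279) and Sostdc1 (0.43, standard error 0.335) did not pass.

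4 members, Ttr, Clic6, Tmem72 and F5, had every striatum library above every frontal cortex library, as did 6.03% of all genes with any count (12.1% did not overlap in either direction). Without library 19 the Prlr difference was 1.17 and Sostdc1 0.03. With library 15 included, 77.7% of the filtered genes and 41.8% of all genes passed. The log2 change was then 2.04 for Sostdc1 and 0.07 for Enpp2, which describes library 15, as its values chose the members.

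**Figure D3:**
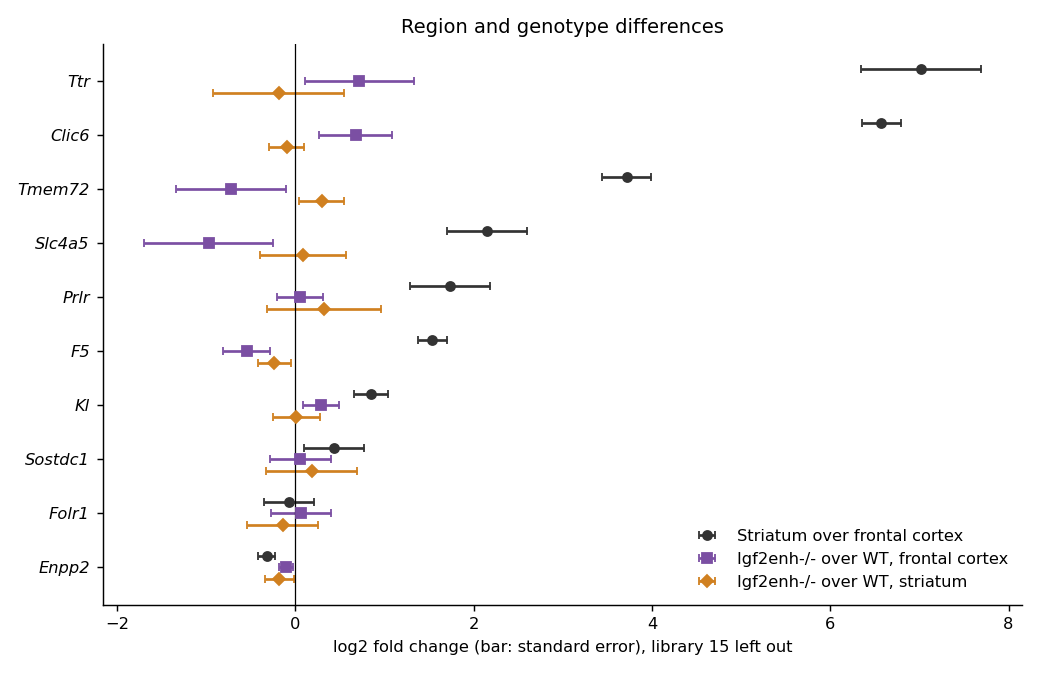
Log2 fold changes of the 10 members with standard errors, library 15 left out, for striatum over frontal cortex and for Igf2enh-/- over wild-type in each region. The region differences of Ttr (7.02) and Clic6 (6.57) stand far from 0, and the genotype differences lie within 2 standard errors of 0 for all members but F5 in frontal cortex.

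Genotype was tested within each region with sex as a term. In frontal cortex 0 of 10 members passed in edgeR's quasi-likelihood test, the likelihood ratio test, DESeq2 and limma-voom. By the quasi-likelihood test 0.38% of the genes of the filtered fit and 1.39% of those with any count passed. Of the filtered genes the likelihood ratio test called 232, DESeq2 242 and limma-voom 58. An unadjusted p under 0.05 was reached by 13.5% of the filtered genes, 8.92% of all genes and 1 of the 10 members, about the share over all genes. That member was F5, whose log2 change was -0.55 (standard error 0.263, adjusted p = 0.51, edgeR). Its 6 wild-type libraries had a median of 0.569 CPM and its 6 Igf2enh-/- libraries a median of 0.373 CPM, with overlapping ranges. The estimate for Kl was 0.29 (standard error 0.197), or 0.07 without library 1, and that for Enpp2 -0.11 (standard error 0.0832). Clic6 stood at 0.68 (standard error 0.412) with library 1 and at 0.12 without it, and Ttr at 0.72 (standard error 0.609) and -0.45.

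In striatum without library 15, 0 of 10 members passed by any of the 4 tests, against 0.0288% of the genes of the filtered fit and 0.0324% of all genes by edgeR's quasi-likelihood test. An unadjusted p under 0.05 was reached by 0 members, 9.16% of the filtered genes and 5.27% of all genes. Log2 fold changes were -0.19 for Ttr (standard error 0.739), -0.18 for Enpp2 (0.158), 0.01 for Kl (0.267), -0.1 for Clic6 (0.201), 0.29 for Tmem72 (0.254), 0.32 for Prlr (0.64) and -0.24 for F5 (0.186). Library 19 decided the value of Ttr. Without it the log2 fold change of Ttr was -1.51 (adjusted p = 0.3, edgeR, the lowest over its alternatives), that of Prlr -0.95 and that of Sostdc1 -0.74. With library 15 all 10 members had positive log2 fold changes, up to 2.85 for Slc4a5 and 2.59 for Ttr. None passed, the lowest adjusted p (edgeR) being that of Ttr, 0.65, against 0.036% of the filtered genes and 0.0293% of all genes. These values describe library 15, which chose the members. The genotype by region term passed for 0 of 10 members and for 0.0% of genes in edgeR's quasi-likelihood test and in the other 3 tests. In edgeR's quasi-likelihood test 404 of 13417 filtered genes, 1114 of 35893 genes with any count and 0 members had an unadjusted p under 0.05. The sex term passed for 0 of 10 members in either region in edgeR's test and DESeq2. By edgeR's quasi-likelihood test it passed for 0.0431% of the filtered genes and 0.56% of all genes in frontal cortex and 0.0288% and 0.0354% in striatum. An unadjusted p under 0.05 for sex in frontal cortex was reached by 1 member, Slc4a5, and by 6.37% of all genes.

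The association with Igf2 was first described by correlation of log2(CPM + 0.5). Over the 15 striatum libraries all 10 members had a positive Pearson r with Igf2, from 0.74 for Prlr to 0.91 for Tmem72 (r = 0.76 for Ttr), while Spearman's rho ran from -0.09 to 0.4. Without library 15 the Pearson r ran from -0.23 for Enpp2 to 0.19 for Kl, with 3 of 10 positive (n = 14). Within the 7 wild-type striatum libraries 9 of 10 were positive with a median of 0.44, and within the 7 Igf2enh-/- libraries other than library 15 1 of 10 was positive with a median of -0.31. The correlation over 15 libraries rests on library 15. When that library and library 20, the 2 farthest from the median of Igf2, were left out, r ran from -0.24 to 0.09 (n = 13).

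In frontal cortex the correlations with Igf2 ran from -0.49 for Enpp2 to 0.61 for Kl (rho 0.57), with Clic6 at 0.6 (rho 0.51) and Ttr at 0.19 (rho -0.08, n = 12). Library 1 had the highest Igf2 (173 CPM), Kl, Clic6, Ttr and Prlr of the 12 and the lowest Enpp2. Without it r was 0.33 for Kl, 0.29 for Clic6 and -0.44 for Ttr (n = 11). Igf2 had an r of 0.87 with the sum of the 14 meningeal fibroblast genes in frontal cortex and 0.82 without library 1. Kl had an r of 0.7 with the same sum and 0.52 without library 1.

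**Figure D4:**
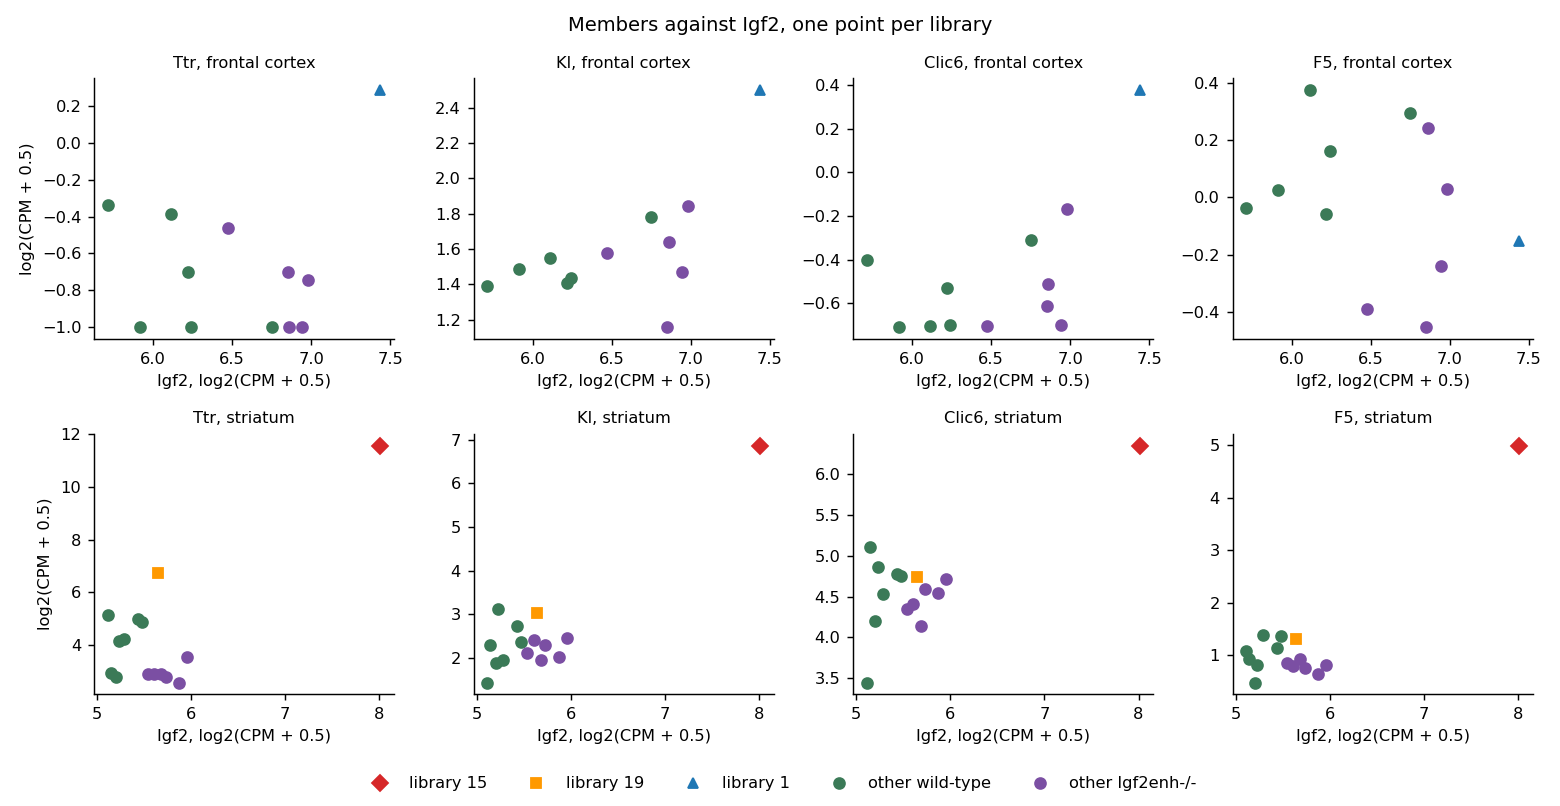
Ttr, Kl, Clic6 and F5 against Igf2 as log2(CPM + 0.5), each point a library, frontal cortex above and striatum below. In striatum library 15 lies alone at high Igf2 and high member level, and the 14 other libraries show no common slope. In frontal cortex library 1 has the highest Ttr, Kl and Clic6.

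A model with genotype, sex and log2 Igf2 then asked whether a member followed Igf2 among libraries of the same genotype and sex. In frontal cortex 0 of 10 members passed in edgeR's quasi-likelihood test or the other 3 tests. By the quasi-likelihood test 0.108% of the filtered genes and 0.281% of all genes passed. An unadjusted p under 0.05 was reached by 2 members, beside 7.42% of the filtered genes and 6.12% of all genes. Clic6 had a slope of 2.28 per unit of log2 Igf2 (standard error 0.781, adjusted p = 0.42, edgeR) and Kl one of 0.85 (standard error 0.334, adjusted p = 0.63, edgeR). Without library 1 these slopes were 1.35 and 0.38. In the same fit 6 of 14 meningeal fibroblast genes passed, with positive slopes, and 3 of 14 without library 1, among the 6 Aldh1a2 (1.27, standard error 0.175), Slc22a6 (1.23, 0.179) and Col1a2 (1.08, 0.173, and 1.06 without library 1, adjusted p = 0.091, edgeR). In striatum without library 15, 0 of 10 members and 0.0% of genes passed in edgeR's quasi-likelihood test, DESeq2 and limma-voom (1 gene in the likelihood ratio test). In edgeR's quasi-likelihood test 535 of 13878 filtered genes, 1218 of 33905 genes with any count and 0 members had an unadjusted p under 0.05. Standard errors of the members' slopes ran from 0.795 to 4.08. Igf2 lay between 34.1 and 44 CPM in the 7 wild-type and between 46 and 61.6 CPM in those 7 Igf2enh-/- libraries, which leaves little spread of Igf2 within a genotype. With library 15 the slopes of the 10 members ran from 0.86 for Clic6 to 3.55 for Ttr. All passed, as did 0.396% of the filtered genes and 0.41% of all genes. Library 15 chose the members and had the highest Igf2 in striatum, so this describes that library and is no test.

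The other gene groups of plexus function were read from the same fits, in which 77.1% of the filtered genes and 41.3% of all genes passed for region, so that list counts near these shares are no result about a list. Of 19 other genes of plexus epithelium 10 were higher and 4 lower in striatum than in frontal cortex, with a median log2 change of 0.57 beside 0.01 over all genes tested. The lower ones included Slc13a4, a sulfate transporter (-3.24, standard error 0.133), and Kcnj13 (-2.57, standard error 0.296), so genes that moved together in library 15 differed in opposite directions between the regions. Slc13a4 ran from 10.8 to 28 CPM in frontal cortex and from 1.23 to 2.49 CPM in the 14 striatum libraries. Of 13 ion and water transport genes of cerebrospinal fluid secretion 8 were higher and 4 lower in striatum, among the former Car12, a carbonic anhydrase (1.8). Of 12 ependymal genes 8 were higher and none lower, and of 14 meningeal fibroblast genes none were higher and 14 lower. None of the genes of plexus epithelium or fluid transport lists passed for genotype in either region.

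Partners of the members were followed as well. For region, 77.1% of the filtered genes and 41.3% of all genes passed, and 39.2% and 21.1% were higher in striatum. Region counts near these shares are no result about a list. Of 13 genes of thyroid hormone and retinol handling, the cargo of transthyretin, 4 were higher and 6 lower in striatum. In frontal cortex 1 of them, Dio3, passed for genotype, beside 0.38% of the filtered genes and 1.39% of all genes. Dio3 is the deiodinase that inactivates thyroid hormone (log2 fold change 1.04, standard error 0.282, adjusted p = 0.038, edgeR). Its highest level was 3.04 CPM in library 1 against a median of 0.579 CPM. Without that library its change was 0.55 (adjusted p = 0.33, edgeR). Of 27 receptors, enzymes and ligands that work with the members 11 were higher and 4 lower in striatum, among them Lpar1, a receptor of the product of autotaxin (1.19, standard error 0.0834), Jak2, the kinase of the prolactin receptor (0.55, 0.0543), and Cish, a target of that pathway (0.81, 0.0823). In library 15 none of the 27 was 2-fold above the next library and 5 were highest, beside 4.15% of genes with 5 CPM or more in that library. For the slope on Igf2 in frontal cortex 1 of the 27 passed, beside 0.108% of the filtered genes and 0.281% of all genes. This was Bmp6, a ligand of the BMP pathway (1.24, standard error 0.19, adjusted p = 0.033, edgeR). Its highest level was in library 1 (17.6 CPM, median 8.94), and without that library the slope was 1.2 and did not pass (adjusted p = 0.075, edgeR).

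Enpp2 was set beside the oligodendrocyte genes and Ttr. Across the 14 striatum libraries its log2 level had an r of 0.88 with the summed level of 8 oligodendrocyte genes (rho 0.75) and of 0.57 with Ttr (rho 0.71). Without library 20, the highest for both Enpp2 and the oligodendrocyte sum (10621 CPM), r was 0.77 with that sum and 0.53 with Ttr (rho 0.69 and 0.65). Without library 19 r was 0.94 and 0.68. In library 15 Enpp2 was 6.86-fold the median while the oligodendrocyte sum was 5391 CPM, below the median of 5913 CPM. In frontal cortex r was 0.77, but -0.06 without library 1, which had the lowest Enpp2 and the lowest oligodendrocyte sum. Between the regions the order was opposite. The oligodendrocyte sum had a median of 1799 CPM in frontal cortex and 5913 CPM in the 14 striatum libraries, and Enpp2 one of 234 CPM and 177 CPM.

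**Figure D5:**
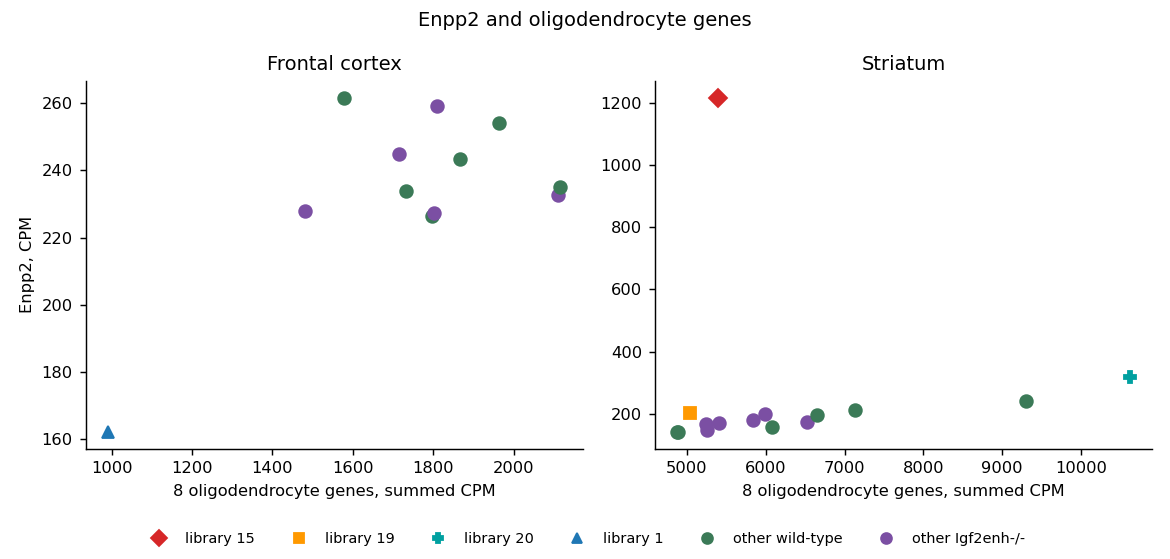
Enpp2 in CPM against the summed CPM of 8 oligodendrocyte genes, each point a library. In striatum Enpp2 increases along the oligodendrocyte sum up to library 20, and library 15 lies at 1216 CPM of Enpp2 with an ordinary oligodendrocyte sum. In frontal cortex library 1 alone is low in both.

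Genes outside the members were ranked by the Pearson r of their log2 level with that of Ttr. Only genes that reached 1 CPM in all libraries of the region entered. Of the 19 other plexus genes, 8 in frontal cortex and 7 in striatum could enter, so absence from the top of the ranking is no result about plexus genes. The 5 genes most like Ttr in each region were not in the lists of plexus genes. In the 14 striatum libraries they were 2310009B15Rik (r = 0.84), Snx22 (0.82), Ivd (0.82), Mamdc4 (0.82) and D730003I15Rik (0.81). In library 15 none of the 5 exceeded its highest level in the other 14. In frontal cortex they were Rps4x (r = 0.92), Wsb1 (0.89), Tpm2 (0.89), Idh2 (0.87) and Rnf182 (0.86), where Ttr rested on 48 counts in all and all 5 genes were highest in library 1. Kcne2 and Cldn2 did not reach 1 CPM in any of these libraries and so did not enter that ranking.

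The promoters of those members that RefSeq's GRCm38.p6 table holds (250 bases before to 50 after the start) were searched for 2 short motifs on both strands. The motifs were TAATCC, the core bound by OTX factors, and TGTTTAC, a core of forkhead factors. Shared control of the members was not tested. The table held 7 windows for 5 members, Kl, Tmem72, Prlr, F5 and Slc4a5. TAATCC was in none of the 7, and in 7.06% of all 32851 windows. TGTTTAC was in 1, a window of Prlr, and in 3.65% of all. These matches are descriptions of letters. The 4 windows printed are those of Prlr with the match, in capitals, and of Kl, Tmem72 and Slc4a5, which had none and so are in lower case. They lie at chr15:10223656-10223955 (plus strand, Prlr), chr5:150952357-150952656 (plus strand, Kl), chr6:116716709-116717008 (minus strand, Tmem72) and chr6:83237125-83237424 (plus strand, Slc4a5).
Prlr: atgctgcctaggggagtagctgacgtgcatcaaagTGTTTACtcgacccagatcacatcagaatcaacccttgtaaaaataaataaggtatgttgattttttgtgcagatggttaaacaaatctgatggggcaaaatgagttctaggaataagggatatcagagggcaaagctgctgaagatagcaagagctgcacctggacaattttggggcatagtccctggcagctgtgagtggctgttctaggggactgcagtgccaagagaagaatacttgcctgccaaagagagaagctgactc
Kl: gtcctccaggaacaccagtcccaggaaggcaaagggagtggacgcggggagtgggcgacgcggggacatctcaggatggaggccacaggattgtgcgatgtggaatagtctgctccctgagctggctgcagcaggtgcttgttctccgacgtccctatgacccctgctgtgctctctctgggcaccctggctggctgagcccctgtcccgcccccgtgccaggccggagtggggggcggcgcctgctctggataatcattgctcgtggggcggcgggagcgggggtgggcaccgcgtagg
Tmem72: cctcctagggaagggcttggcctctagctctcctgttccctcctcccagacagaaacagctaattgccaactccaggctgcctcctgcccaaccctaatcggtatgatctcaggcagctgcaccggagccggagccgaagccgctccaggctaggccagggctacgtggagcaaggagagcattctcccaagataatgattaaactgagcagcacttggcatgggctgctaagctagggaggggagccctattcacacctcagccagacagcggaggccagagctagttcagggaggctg
Slc4a5: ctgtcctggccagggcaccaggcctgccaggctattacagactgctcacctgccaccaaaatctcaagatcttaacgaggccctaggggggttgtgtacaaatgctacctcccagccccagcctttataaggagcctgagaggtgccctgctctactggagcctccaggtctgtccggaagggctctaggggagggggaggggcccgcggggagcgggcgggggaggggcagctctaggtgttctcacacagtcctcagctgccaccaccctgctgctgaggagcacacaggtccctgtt

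G and C made up 67.3% of the bases of the Kl window, with 19 CG dinucleotides, and 45.7% of those of the printed Prlr window, with 2. The medians over all windows were 52.7% and 7. The 3 Prlr windows ran from 35.3 to 49.3% and from 2 to 8 CG dinucleotides.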

How the data were processed

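Per the labels and the study's methods, the authors depleted ribosomal RNA, removed adapters (Trim Galore 0.5.0), mapped reads to GRCm38 by STAR, used the GENCODE vM15 annotation and deposited 1 table of read counts per region, with Ensembl identifiers. The deposited counts are unnormalized. Symbols were matched to identifiers. The members and all gene lists were chosen with earlier results of these data known. edgeR 4.0.16 (R 4.3.3) quasi-likelihood F-tests with TMM normalization, genotype and sex terms and Benjamini-Hochberg adjustment were fitted to genes with at least 1 CPM in all libraries of the fit. Members under that filter were read from the same model fitted to every gene with at least 1 count. Library 15 was left out of the striatum tests. Calls used an adjusted p of 0.05. Alternatives were DESeq2 1.42.0, voom from limma 3.58.1, edgeR's likelihood ratio test, another normalization, other filters, no sex term, library 15 included and each library left out. The scripts were tested on simulated counts. The study counts each library of a region as 1 mouse. Genes named beside the members were Igf2, up to 5 of smallest p per list, list markers whose level bears on a member, the 10 with the largest ratio of library 15 to the next library and the 5 most like Ttr per region. Correlations that leave out library 1, 19 or 20 were added after seeing the data.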

Additional observations from a re-analysis of the deposited data

Results flagged for a closer look

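On the log2(CPM + 0.5) scale, in groups of 4 to 10 libraries, the gap of the most extreme library to its nearest neighbour was divided by the range of the group and set against Dixon's 95% critical value. Of 40 tests, 10 members in 4 groups, 12 passed. This count cannot be set against a chance rate, because the Igf2enh-/- striatum group holds library 15, whose values chose the members. Library 15, highest in the Igf2enh-/- striatum, accounted for 9, which repeats what chose the members, with ratios of 0.537 for Ttr, 0.85 for Enpp2, 0.781 for Kl, 0.761 for Folr1, 0.731 for Clic6, 0.742 for Tmem72, 0.845 for F5, 0.749 for Slc4a5 and 0.614 for Sostdc1. Library 1 was far below the other Igf2enh-/- frontal cortex libraries in Enpp2 (0.72). Slc4a5 was far above the others in library 10, a wild-type frontal cortex (0.713, at 0.31 CPM), and far below them in library 24, a wild-type striatum (0.607, at 0.0343 CPM), both at low counts. On linear CPM 15 ratios passed, 10 of them from library 15, with Prlr at 0.798.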

How the results depend on the processing

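The count of members that passed was 0 for genotype, genotype by region and sex under all alternatives run. For the slope on Igf2 it was 0 except in striatum with library 15, where it was 10 and describes that library. It was 7 or 8 for region, and 8 in all 26 fits that left out 1 library. DESeq2 gave no adjusted p for Prlr by region (log2 change 1.69). The cause of the changes that follow was not tested. With library 15 the genotype difference in striatum turned to 2.59 for Ttr, 0.44 for Enpp2, 0.23 for Clic6, 2.25 for Folr1 and 1.13 for F5, and the region difference to 0.074 for Enpp2 and 1.68 for Folr1. With limma-voom the genotype difference was -0.023 for Folr1 in frontal cortex, and -0.059 for Prlr, -0.076 for Slc4a5 and -0.29 for Sostdc1 in striatum. Without the sex term it was 0.057 for Ttr in striatum. When each library was left out in turn, genotype differences in frontal cortex ran from -0.45 to 1.44 for Ttr, -0.15 to 0.28 for Folr1, -0.086 to 0.17 for Prlr and -0.095 to 0.30 for Sostdc1. In striatum they ran from -1.51 to 0.026 for Ttr, -0.16 to 0.25 for Kl, -0.23 to 0.021 for Clic6, -0.53 to 0.037 for Folr1, -0.95 to 0.85 for Prlr, -0.48 to 0.31 for Slc4a5 and -0.74 to 0.36 for Sostdc1. The region difference of Folr1 ran from -0.24 to 0.027. The number of members with a positive correlation with Igf2 in frontal cortex was 5 of 10 over all 12 libraries. It was 3 without the 2 libraries farthest in Igf2, 5 within wild-type and 7 within Igf2enh-/- libraries. In striatum without library 15 it was 5 on linear CPM, 5 without the 2 farthest libraries, 9 within wild-type and 1 within Igf2enh-/- libraries. Over the filtered genes, genotype gave 53 calls in frontal cortex and 4 in striatum (DESeq2 242 and 105, likelihood ratio test 232 and 58, limma-voom 58 and 4), and the slope in frontal cortex gave 15 (43, 56 and 15). No paired analysis was possible because each library number occurs once. Counts of a few reads limit Ttr, Tmem72 and Slc4a5 in frontal cortex.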
